A study of Mus musculus with 16 samples.

Results

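Aminoacyl-tRNA synthetases, the enzymes that load each tRNA with its amino acid, were followed in mouse calf muscle across RNA of the whole tissue, of polysomes and of monosomes. Members were chosen by name alone, as the mouse genes whose array names are a 1-letter amino acid code followed by "ars" or "ars2", together with Farsa, Farsb and Eprs. This rule found 37 genes among the 34650 gene names on the array, of which 20 encode cytosolic enzymes and 17, with names ending in 2, encode mitochondrial ones. The probe with the highest mean signal stood for each gene. Tests were limited to probes that the scanner software called well above background on all arrays of 1 group or more, and 34 members (18 cytosolic and 16 mitochondrial) met this. Rars, Yars and Nars2 did not.

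The study compared 3 male C57BL6 mice with 1 working copy of Eif6 (Eif6+/-, called Het) with 3 wild-type littermates (Eif6+/+, called WT), aged 8 to 16 weeks. Eif6 encodes an initiation factor that binds the large ribosomal subunit. Gastrocnemius, the large calf muscle, was profiled as whole-muscle RNA, as polysome RNA (pooled fractions of a 15% to 50% sucrose gradient whose transcripts carry at least 2 ribosomes) and as monosome RNA, and the design text gives all 3 kinds as coming from each mouse. There were 3 arrays in each whole-muscle and polysome group and 2 in each monosome group (WT replicates 1 and 2, Het replicates 1 and 3), so 16 arrays in 6 groups. Every value below is a log2 signal, background-subtracted by the scanner software and quantile-normalized over the 16 arrays, or a difference of such signals. In bulk muscle a change in cell types and a change in RNA per cell cannot be told apart.

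A synthetase first joins its amino acid to ATP and then passes it to the matching tRNA, so that the ribosome reads each codon as the right residue. Cytosolic translation and the small translation system inside mitochondria mostly use separate synthetases, but Gars (glycine) and Kars (lysine) each supply both compartments from 1 gene. Glutamine has no mitochondrial enzyme of its own on the list, because mitochondria make its charged tRNA from a glutamate-charged intermediate. Several cytosolic enzymes, among them Eprs, Iars, Lars, Mars, Qars, Rars, Kars and Dars, sit together in a large multisynthetase complex. In muscle, which turns over much protein and is dense in mitochondria, both sets of enzymes are in use.

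A pair of arrays stood apart from the rest. Over 1171 pairs of probes to the same transcript, the median signal of the probe nearer the 5′ end minus that nearer the 3′ end lay between -1.35 and -0.79 on 14 arrays, but 0.60 for polysomes and 0.82 for monosomes of WT replicate 2. The members moved alike on these arrays: their deviations from the other WT arrays of the same RNA kind had r = 0.645 across the 37 members, and 31 members deviated with the same sign on both, a description over genes that share the arrays. Values without WT replicate 2 are therefore given beside results that it moved most. Brightness, the 75th percentile of the processed signal, ran from 12.7 to 150 scanner units. All 7 muscle fibre markers were well above background on all 16 arrays, with summed log2 levels of 18.2 to 19.2. Het minus WT of Eif6 itself was -0.93 in whole muscle (adjusted p = 0.611), -1.32 in polysomes (adjusted p = 0.516) and -1.82 in monosomes (adjusted p = 0.0451), and the genotypes did not overlap in any of the 3.

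**Figure D1:**
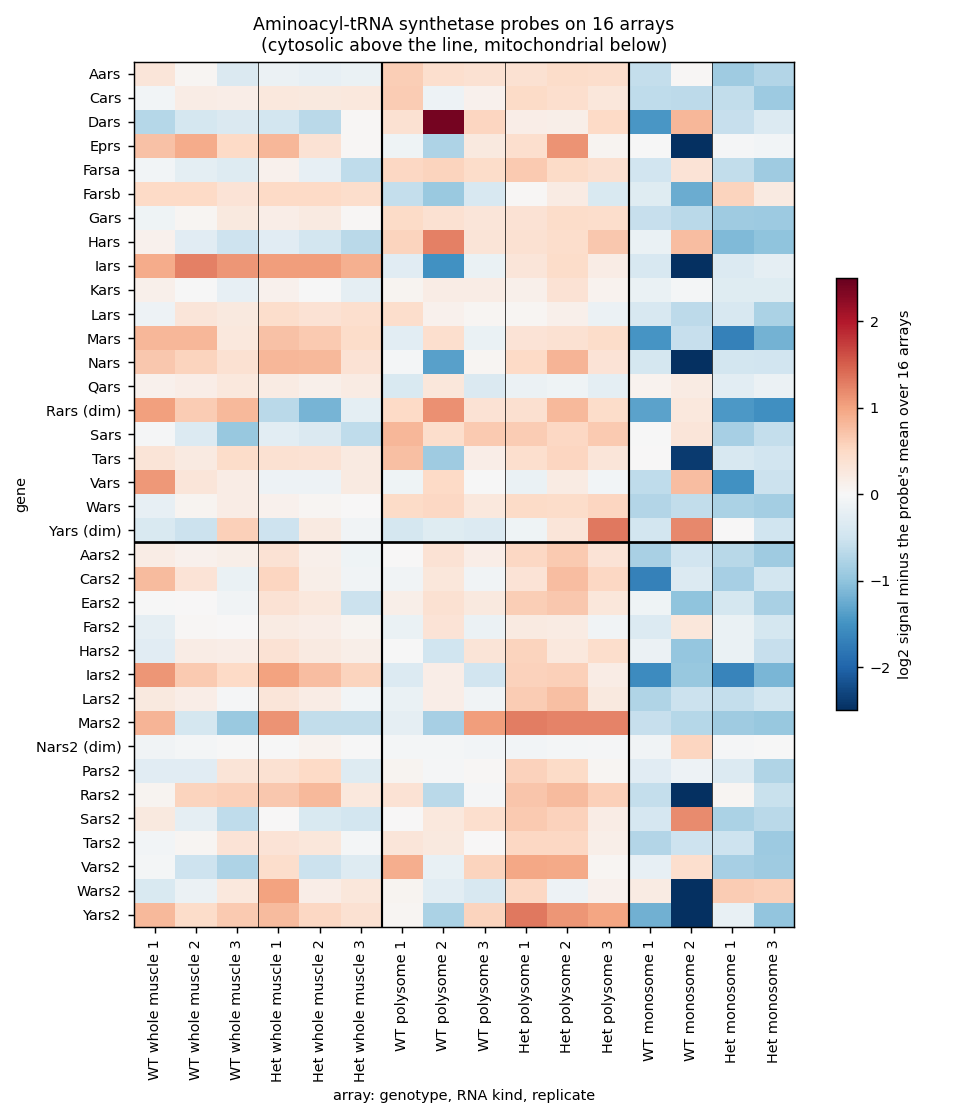
Log2 signal of 36 synthetase probes (rows) on each of the 16 arrays (columns), as the difference from that probe's own mean. Thick vertical lines part the RNA kinds and the thick horizontal line parts cytosolic from mitochondrial enzymes. Most rows are bluer on the monosome arrays, where the class medians lay between -0.76 and -0.30, and WT polysome 2 and WT monosome 2 differ from their neighbors. Colors saturate at the ends of the scale.

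The clearest pattern ran between the gradient fractions. Relative to the other RNA species on the arrays, synthetase transcripts were more abundant on polysomes than on monosomes, in both the cytosolic and the mitochondrial class. The ratio of polysome to monosome signal within a mouse was above 0 on average for 32 of the 34 tested members, against 56.6% of all tested probes. The exceptions among the members were Farsb (-0.28 ± 0.23, SE) and Qars (-0.10 ± 0.23). One of the 32, Mars2, passed the signal filter only through the Het polysome group, so that its sign was favored by the filter. Among members well above background on all 16 arrays the ratio was above 0 for 12 of 14 cytosolic and 8 of 8 mitochondrial ones. Cars2 counts here by its brighter probe, and its other tested probe was at -0.16 ± 0.21. The other tested probes of Farsa, Iars2 and Tars2 were above 0. By the probe that stood for each gene, the counts go on as follows. The ratio was above 0 in each of the 4 mice for 25 of 34 members (14 of 18 cytosolic and 11 of 16 mitochondrial), against 31.0% of all 20244 tested probes. Medians of a class or list are taken over all its members on the array, tested or not. For this ratio the median was 0.98 for the cytosolic and 0.81 for the mitochondrial class, and 0.17 over all tested probes. The class medians were lower with normexp background correction (0.60 and 0.37) and in the authors' table (0.62 and 0.37).

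With these 4 mice, limma called no member at an adjusted p under 0.05, and it called none of the tested probes either (0%, smallest adjusted p 0.0551). At an unadjusted p under 0.05, 22 of the 34 members were higher on polysomes and 0 were lower, against 24.6% of tested probes higher. Without WT replicate 2, which leaves WT replicate 1 and Het replicates 1 and 3 and so rests on the lone WT mouse varying like the others, 20 members rose (11 cytosolic and 9 mitochondrial, Mars2 among the latter) and 0 fell at an adjusted p under 0.05. The same fit called 19.0% of tested probes higher and 14.5% lower. In those 3 mice 30 of 34 members were higher on polysomes in every mouse, against 37.9% of tested probes. With all 4 mice the count of calls also rested on the processing, at 19 with normexp background correction (24.9% of tested probes called in either direction) and 20 with 75th percentile scaling (25.2%), and it was 25 without WT replicate 1 (49.8%).

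Mars, which charges methionine tRNA for both initiation and elongation, had ratios of 2.03 and 1.63 in Het 1 and Het 3 and of 1.22 and 0.98 in WT 1 and WT 2. All were well above 0, and the mean was 1.47 ± 0.22 (adjusted p = 0.0551, and 0.0285 without WT replicate 2). Wars, the tryptophan enzyme, was the most even of the high group, with 1.27 and 1.38 in Het and 1.20 and 1.13 in WT. Its mean was 1.25 ± 0.21 (adjusted p = 0.0551, and 0.0285 without WT replicate 2).

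Yars2, the mitochondrial tyrosine enzyme, had the highest mean ratio of the members, 2.11 ± 0.45, with 1.50 and 1.98 in Het and 1.25 and 3.71 in WT. The last value comes from WT replicate 2, where the probe was not well above background on the monosome array. Without that mouse the mean was 1.49 ± 0.19, no longer the highest, below Mars (1.53) and Iars2 (1.51). Iars2, the mitochondrial isoleucine enzyme, had 2.24 and 1.33 in Het and 1.23 and 1.11 in WT, with a mean of 1.48 ± 0.25 (adjusted p = 0.0551). Its probe was not well above background on Het monosome 1, the array behind the ratio of 2.24, nor on either WT monosome array, so that in WT the polysome signal was at least 1.63-fold that of monosomes.

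At the other end, Farsb, the β subunit of the cytosolic phenylalanine enzyme, had ratios of -0.53 and -0.59 in Het and -0.29 and 0.31 in WT. Only WT replicate 2 was above 0. Qars, the glutamine enzyme, had 0.12 and -0.10 in Het and -0.48 and 0.08 in WT, on both sides of 0 in each genotype. Fars2, the mitochondrial phenylalanine enzyme, was low among its class at 0.24 ± 0.21, with single mice between 0.06 and 0.39.

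Both dual-compartment genes were well above background on all 16 arrays and gave unlike ratios. Gars had ratios of 1.25 and 1.33 in Het and 1.06 and 1.06 in WT (mean 1.17 ± 0.20, adjusted p = 0.0551). Kars had 0.43 and 0.39 in Het and 0.24 and 0.23 in WT (mean 0.32 ± 0.20, adjusted p = 0.277). The ranges of the mice did not overlap between the genes, and the difference was not tested.

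**Figure D2:**
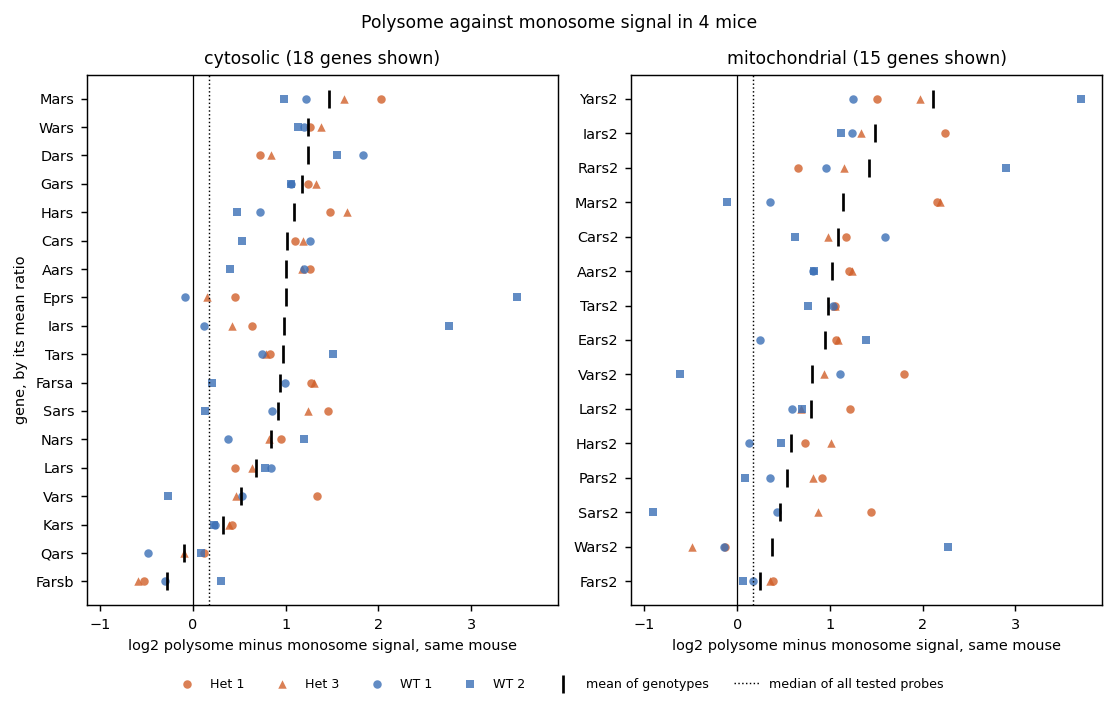
Log2 polysome minus monosome signal of the same mouse for 33 tested members, with 1 point per mouse (4 mice), a black bar for the mean of the genotype means and a dotted line at 0.17, the median of all tested probes. Most members lie to the right of the dotted line in every mouse; Farsb and Qars lie around 0, and WT 2 gives the outlying values of Yars2, Eprs, Iars, Rars2 and Wars2.

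Marker lists of muscle and other cell types were set beside the same ratio. Of the muscle fibre markers 5 of 7 were above 0 (median 0.55), of the blood markers 4 of 7 (0.13), of the immune markers 4 of 6 (0.25), of the endothelial markers 2 of 4 (0.28), of the fibroblast and matrix markers 3 of 5 (0.22) and of the adipocyte markers 3 of 4 (1.43). With 4 mice no tested probe was called, so no marker could be. Without WT replicate 2 the markers called higher were 1 of 7 for muscle fibre, 1 of 7 for blood, 1 of 6 for immune, 1 of 4 for endothelial, 1 of 5 for fibroblast and matrix and 3 of 4 for adipocyte, with 1 immune marker lower. The part of these in the ratio of the synthetases was not tested.

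Against whole muscle, polysome RNA did not carry synthetase transcripts as a block. With all 6 mice, 6 members rose and 3 fell at an adjusted p under 0.05. These 9 of 34 stand beside 24.7% of all tested probes called (13.1% higher and 11.6% lower), so that the count was near the background. The medians were 0.16 for the cytosolic and 0.04 for the mitochondrial class, and 0.10 over all tested probes. Over tested members alone they were 0.0067 and 0.09. Without WT replicate 2 the counts were 6 higher and 4 lower, with 27.3% of tested probes called. The same 9 members were called in both fits, with Qars (-0.45 ± 0.13, adjusted p = 0.0467) added. Leaving out a Het mouse lowered the number called to 2 (replicate 3, 11.5% of tested probes), 4 (replicate 1, 11.8%) or 5 (replicate 2, 16.8%). Fits on a single slide, given below, also dropped the pairing within a mouse and left some groups with a lone array.

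Of the members that rose, Sars, the serine enzyme, had polysome minus whole-muscle ratios of 0.90, 0.89 and 1.27 in Het and 0.87, 0.78 and 1.61 in WT. All 6 were above 0, with a mean of 1.05 ± 0.17 (adjusted p = 0.00643). Hars, the histidine enzyme, had 0.65, 0.90 and 1.35 in Het and 0.46, 1.53 and 0.85 in WT (mean 0.96 ± 0.19, adjusted p = 0.0133). Dars, the aspartate enzyme, had 0.61, 0.83 and 0.47 in Het and 1.096, 2.82 and 0.90 in WT. Its probe was not well above background on the whole-muscle array of Het 2, so that the 0.83 rests on a value at background. The value of 2.82 came from WT replicate 2, and the mean fell from 1.12 ± 0.26 (adjusted p = 0.0226) to 0.82 ± 0.13 (adjusted p = 0.0102) without it.

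Vars2, the mitochondrial valine enzyme, rose by 0.83 ± 0.21 (adjusted p = 0.0300), with single mice between 0.33 and 1.49. Its probe was not well above background on the whole-muscle arrays of Het 2 and Het 3, so that the ratios of these mice rest on values at background. Aars, the alanine enzyme, rose by 0.53 ± 0.14 (adjusted p = 0.0333), with single mice between 0.31 and 0.74. Of the members that fell, Iars, the cytosolic isoleucine enzyme, was the lowest, with -0.75, -0.59 and -0.70 in Het and -1.21, -2.77 and -1.25 in WT. All 6 mice were below 0, and every WT mouse was below every Het mouse. The mean was -1.21 ± 0.23 (adjusted p = 0.0114), and -0.96 ± 0.12 (adjusted p = 0.00586) without WT replicate 2.

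The cytosolic phenylalanine enzyme is built from α subunits, encoded by Farsa, and β subunits, encoded by Farsb, and the transcripts of these partners went opposite ways. Farsa had ratios of 0.54, 0.68 and 1.04 in Het and 0.58, 0.80 and 0.79 in WT. Farsb had -0.47, -0.29 and -0.82 in Het and -1.09, -1.41 and -0.76 in WT. Every mouse had Farsa above 0 and Farsb below it. Farsa rose by 0.74 ± 0.15 (adjusted p = 0.0125), and the mean of Farsb was -0.81 ± 0.16 (adjusted p = 0.0131). In the polysome to monosome ratio Farsa was at 0.94 ± 0.24 and Farsb at -0.28 ± 0.23, with Farsa above Farsb in 3 of the 4 mice and the reverse in WT 2 (0.21 and 0.31). The signal of Farsb was 8.42 to 8.57 on the 6 whole-muscle arrays, 7.14 to 8.28 on the polysome arrays and 6.84 to 8.63 on the monosome arrays.

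**Figure D3:**
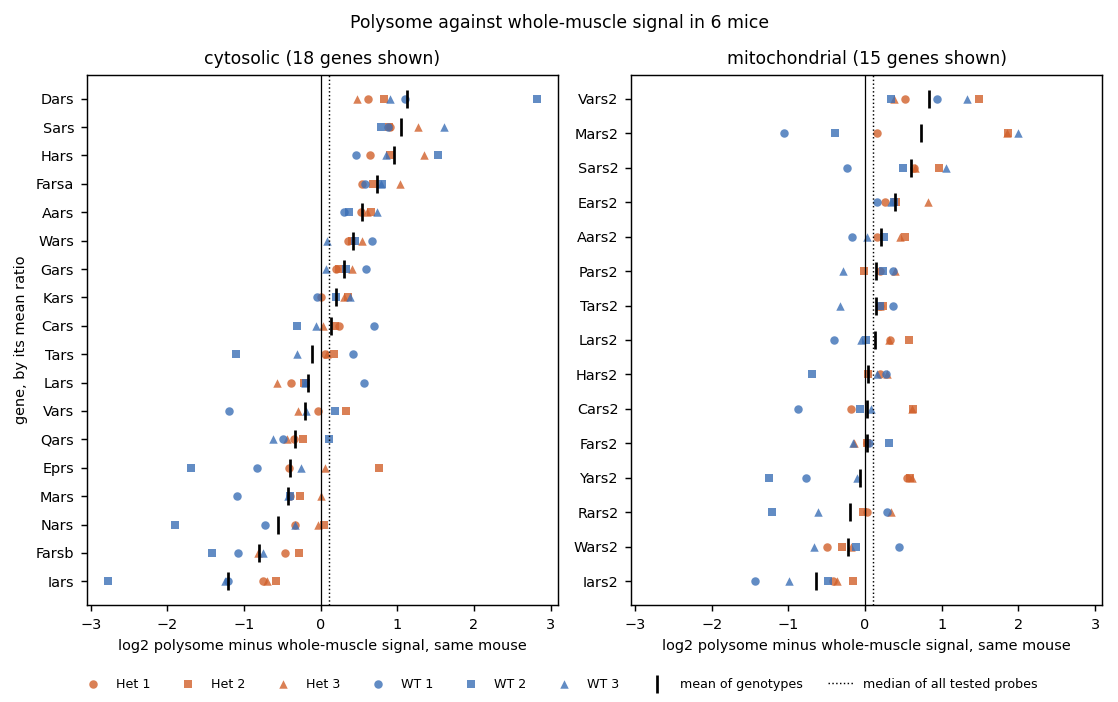
Log2 polysome minus whole-muscle signal of the same mouse for 33 tested members, with 1 point per mouse (6 mice), a black bar for the mean of the genotype means and a dotted line at 0.10, the median of all tested probes. Members spread to both sides, from Iars at -1.21 to Dars at 1.12, and Farsa and Farsb lie on opposite sides of 0 in every mouse.

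Where a gene had more than 1 tested probe (Farsa, Cars2, Iars2 and Tars2), the probes did not always give the same ratio. Probe sequences are shown for Iars2, whose 2 probes had means of opposite sign, for Farsb, and for the dimmer tested probe of Farsa, at position 1061. The Farsa probe at position 1769, which stood for the gene and gave the contrast with Farsb, is not shown. Whether the position of a probe or its dimness goes with the difference was not tested. Each is a 60-base probe of the array, written 5′ to 3′ as the files give it, with its mm9 position. No capitals are used because no base is singled out. A genomic span above 60 bases means that the probe crosses an intron, and the exon or UTR at each position was not looked up because no mm9 annotation was used here.
Iars2, transcript position 2980, chr1:187111041-187111948, minus strand: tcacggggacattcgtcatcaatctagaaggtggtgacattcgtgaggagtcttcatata
Iars2, transcript position 1694, chr1:187139773-187139832, minus strand: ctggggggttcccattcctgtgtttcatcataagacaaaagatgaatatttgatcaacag
Farsb, transcript position 1505, chr1:78440318-78451340, minus strand: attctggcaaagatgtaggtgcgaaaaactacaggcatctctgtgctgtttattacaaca
Farsa, transcript position 1061, chr8:87391534-87391694, plus strand: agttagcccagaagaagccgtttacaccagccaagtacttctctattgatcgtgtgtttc

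The Iars2 probe at position 2980 stood for the gene and had polysome minus whole-muscle ratios of -0.42, -0.16 and -0.36 in Het and -1.44, -0.49 and -0.99 in WT, all below 0 (mean -0.64 ± 0.17, adjusted p = 0.0323). The probe at position 1694 had -0.27, 4.07 and -0.61 in Het and 0.58, 2.67 and 0.61 in WT, above 0 in 4 of 6 mice (mean 1.18 ± 0.63, adjusted p = 0.212). Its 2.67 came from WT replicate 2, without which the mean was 0.83 ± 0.70 (adjusted p = 0.4001). Its 4.07 came from a whole-muscle signal of 1.60 on Het 2, against 4.64 to 6.04 on the other whole-muscle arrays. Toward monosomes both Iars2 probes were higher on polysomes, by 1.48 and 1.33. The fall of Iars2 on polysomes relative to whole muscle therefore holds for 1 of its 2 probes.

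For Farsa, the probe at position 1061 gave 0.12, 1.41 and 1.77 in Het and -1.74, -0.36 and -0.47 in WT, so that its genotypes lay on opposite sides of 0. Its mean was 0.12 ± 0.28 (adjusted p = 0.782), and it was well above background on 9 of 16 arrays, against 16 for the probe at position 1769 that stood for the gene. The rise of Farsa thus rests on the brighter probe. For Tars2, the mitochondrial threonine enzyme, the brighter probe was at 0.14 ± 0.15 and the other at -0.64 ± 0.23 (adjusted p = 0.0877, and -0.80 with adjusted p = 0.0446 without WT replicate 2). For Cars2, the mitochondrial cysteine enzyme, the probes gave 0.03 ± 0.20 and 0.16 ± 0.21. In its polysome to monosome ratio they had opposite signs, at 1.09 ± 0.26 for the brighter probe and -0.16 ± 0.21 for the other.

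**Figure D4:**
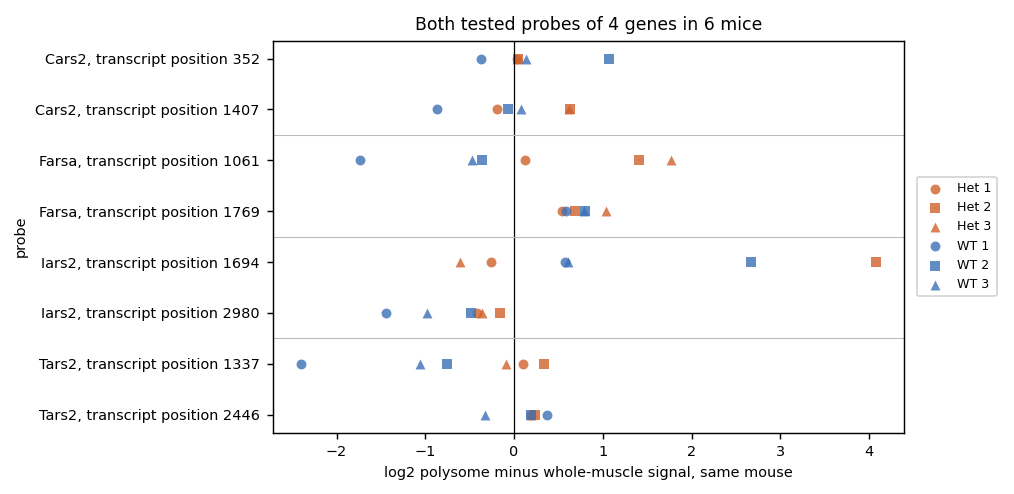
Log2 polysome minus whole-muscle signal of the same mouse for both tested probes of Cars2, Farsa, Iars2 and Tars2, with 1 point per mouse (6 mice) and probes named by their position on the transcript. The Iars2 probe at position 2980 is below 0 in all 6 mice and the other is above 0 in 4, and the Farsa probe at position 1061 is above 0 in Het and below 0 in WT.

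In whole muscle none of the 34 tested synthetase transcripts differed detectably between Het and WT. No tested member had an adjusted p under 0.05 (0% of tested probes were called), and 0 members reached an unadjusted p under 0.05, against 1160 of all tested probes. The class medians of Het minus WT were -0.01 for cytosolic and 0.07 for mitochondrial enzymes, and -0.03 over all tested probes. The genotypes did not overlap, with Het higher, for 3 tested members (Cars, Fars2 and Lars), where 5.28% of tested probes did so. They did not overlap with Het lower for 0 tested members, against 8.32% of tested probes. Rars, the arginine enzyme, was too dim to be tested, at 2.53, 2.04 and 2.96 in Het and 4.23, 3.83 and 4.01 in WT. These ranges did not overlap, but the probe was well above background on 2 of the 3 WT arrays and on none of the Het ones. The 95% interval of the difference lay within 1 log2 unit of 0 for 22 of the 34 members. Its width uses a spread shared with the polysome and monosome arrays, not that of whole muscle alone.

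The 95% interval of the most different tested members in whole muscle still held 0. Vars, the valine enzyme, was the lowest, with 6.04, 6.05 and 6.40 in Het and 7.26, 6.47 and 6.36 in WT, so that the genotypes overlapped (-0.53 ± 0.39, adjusted p = 0.987). Wars2, the mitochondrial tryptophan enzyme, was the highest of those tested, with 5.05, 4.22 and 4.33 in Het and 3.66, 3.90 and 4.31 in WT (0.57 ± 0.52, limma, unadjusted p = 0.293), though not well above background on the arrays of Het 2 and Het 3. Gars was at 10.91, 10.97 and 10.77 in Het and 10.64, 10.80 and 10.99 in WT, a difference of 0.07 with a 95% interval from -0.36 to 0.50. Kars was at 10.3, 10.2 and 10.0 in Het and 10.3, 10.2 and 10.0 in WT, with an interval from -0.45 to 0.44.

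On polysomes no member passed the test either (0% of tested probes were called), but the mitochondrial enzymes lay to 1 side. Among members well above background on all 16 arrays, Het minus WT was above 0 for 8 of 8 mitochondrial and 8 of 14 cytosolic ones, with medians of 0.35 and 0.01. Over all tested members it was above 0 for 16 of 16 mitochondrial and 11 of 18 cytosolic ones, where 52.5% of all tested probes were above 0. These signs are those of the probe that stood for each gene. The other tested probe was below 0 for Cars2 (-0.62 ± 0.45) and Iars2 (-0.41 ± 0.98) and above 0 for Tars2 (0.84 ± 0.41). One of the 16, Mars2, passed the filter only through the Het polysome group, so that its sign was favored by the filter. The class medians over all members were 0.36 and 0.03, against 0.04 over all tested probes, and the mitochondrial one was 0.42 over tested members alone. Array by array, the median of the mitochondrial members around their own means was 0.24 to 0.66 on the 3 Het polysome arrays and -0.04 to 0.03 on the 3 WT polysome arrays, with no overlap. Without WT replicate 2, 15 of 16 mitochondrial members were above 0, with a class median of 0.33.

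At an unadjusted p under 0.05, 4 members were higher in Het on polysomes and 0 lower, where 1522 of the tested probes reached that level in either direction. These were Lars2 (0.56 ± 0.23), Iars2 (0.68 ± 0.29), Farsb (0.60 ± 0.28) and Mars2, whose p carries no weight because of the filter, with adjusted p from 0.629 to 0.657. The other tested probe of Iars2 was at -0.41 ± 0.98. Without WT replicate 2 there were 6 (Iars, Iars2, Lars2, Mars, Nars and Yars2), all higher in Het, against 2655 tested probes in either direction, and Farsb and Mars2 were no longer among them. The genotypes did not overlap, with Het higher, for 9 tested members (3 cytosolic and 6 mitochondrial, of which Mars2 was favored by the filter), against 12.9% of tested probes, and with Het lower for 0 tested members, against 8.74%.

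Lars2, the mitochondrial leucine enzyme, was at 7.90, 8.02 and 7.51 in Het polysomes and 7.11, 7.44 and 7.19 in WT polysomes, without overlap. Yars2 was at 7.50, 7.28 and 7.16 in Het and 6.21, 5.38 and 6.72 in WT, again without overlap (1.21 ± 0.62, adjusted p = 0.664). Mars2, the mitochondrial methionine enzyme, was a dim probe, at 3.88, 3.86 and 3.85 in Het and 2.39, 1.78 and 3.66 in WT. It was well above background on all 3 Het polysome arrays, on 1 of 3 WT polysome arrays and on none of the monosome or Het whole-muscle arrays. Its differences therefore set measured signals against values at background and are not sizes of a change.

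The cytosolic members with the widest differences on polysomes depended on WT replicate 2. Nars, the asparagine enzyme, was at 7.65, 8.00 and 7.49 in Het and 7.11, 5.80 and 7.20 in WT, where the low value came from that mouse. Its difference went from 1.01 ± 0.48 to 0.56 ± 0.22 without it, and that of Iars from 0.96 to 0.53. Dars was at 6.29, 6.29 and 6.63 in Het and 6.52, 8.52 and 6.68 in WT, where the high value came from the same mouse, and went from -0.83 ± 0.56 to -0.19 ± 0.25. Hars, at -0.22 ± 0.31, turned to 0.05 ± 0.23 without it. Lars, the leucine enzyme, was at 8.52, 8.61 and 8.33 in Het and 8.92, 8.59 and 8.52 in WT (-0.19 ± 0.23).

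Other features of the polysome arrays differed between genotypes, though no marker was called (0% of tested probes). All 7 muscle fibre markers were above 0 in Het minus WT, and 6 of 7 without WT replicate 2. The log2 of their summed signal was 18.9 to 19.1 in Het and 18.6 to 18.7 in WT. None of the 7 blood markers was above 0, with such a level of 15.4 to 15.8 in Het and 16.4 to 17.6 in WT. The 5 fibroblast and matrix markers were likewise all below 0 (15.2 to 15.3 in Het and 15.8 in WT), as were the 6 tested immune markers (10.6 to 11.8 and 11.5 to 12.4). Endothelial and adipocyte markers had medians of 0.02 and -0.26 over those tested. The Het polysome arrays had a brightness of 73.6, 106 and 63.1 and the WT ones of 54.7, 24.1 and 66.1. The part of these in the level of the mitochondrial synthetases was not tested.

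**Figure D5:**
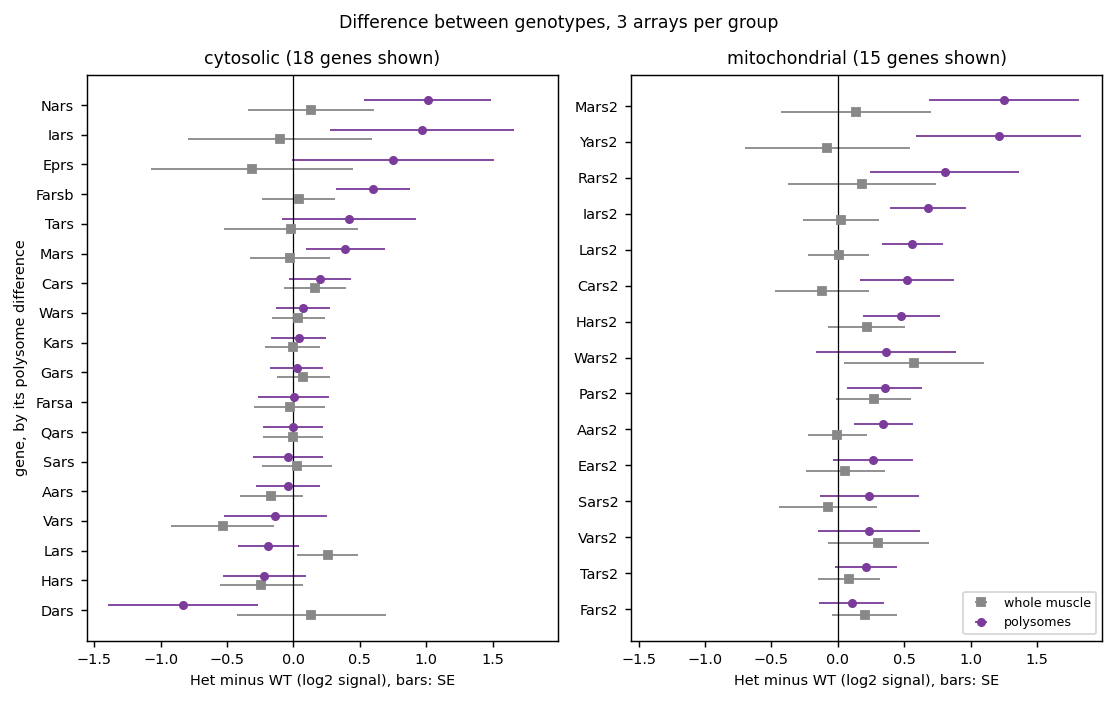
Het minus WT difference in log2 signal for 33 tested members in polysomes (circles) and whole muscle (squares), with bars of 1 SE and 3 arrays per group. All 15 mitochondrial circles lie to the right of 0 and the cytosolic ones lie on both sides, and no difference passed the adjusted threshold.

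Polysome loading, the polysome minus whole-muscle ratio of a mouse, was compared between genotypes next. No member differed at an adjusted p under 0.05 (0% of tested probes were called, 3437 of them at an unadjusted p under 0.05). The medians of Het minus WT were 0.08 for the cytosolic and 0.31 for the mitochondrial class, against 0.16 over all tested probes. They were 0.15, 0.27 and 0.08 without WT replicate 2, so that the cytosolic median went from below that of all probes to above it. The mitochondrial median turned to -0.031 on slide 2 alone and was 0.15 with array brightness as a term. No mouse had both arrays of its ratio on the same slide, so the value on slide 2 alone is unpaired. Loading did not overlap between genotypes, with Het higher, for 6 tested members, against 13.4% of tested probes, and with Het lower for 2 (Dars and Lars), against 11.9%. Loading uses the same polysome arrays as the preceding comparison and is not independent of it.

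Yars2 was the 1 member at an unadjusted p under 0.05. Its loading was 0.54, 0.59 and 0.61 in Het and -0.76, -1.26 and -0.10 in WT, so that every Het mouse was above 0 and every WT mouse below it. The difference was 1.29 ± 0.36 (adjusted p = 0.154), and 1.01 ± 0.30 (adjusted p = 0.169) without WT replicate 2.

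Dars had the lowest loading difference, -0.97 ± 0.53, and Lars the next, -0.45 ± 0.33. With WT replicate 2 left out Dars was at -0.36 ± 0.27 and Lars, at -0.58 ± 0.33, was the lowest. The ratios of Lars were -0.39, -0.22 and -0.57 in Het and 0.57, -0.20 and -0.21 in WT, where Het 2 and WT 3 almost touched. Wars2 was at -0.21 ± 0.36, and turned to 0.65 on slide 1 alone. For Gars and Kars the differences were -0.05 (95% interval -0.73 to 0.64) and 0.05 (-0.64 to 0.73).

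Monosome RNA compared 2 Het with 2 WT arrays, of which WT monosome 2 was the most unlike the rest. No member passed an adjusted p under 0.05, where 0.499% of tested probes did. At an unadjusted p under 0.05, 6 members were higher in Het and 4 lower, against 6681 of the 20244 tested probes in either direction. This was 3 higher and 1 lower without WT replicate 2, against 2899 tested probes, with the lone WT array taken to vary like the other groups. The highest were Yars2 (2.27 ± 0.76), Eprs (2.09 ± 0.93) and Iars (2.06 ± 0.85), and the lowest were Hars (-1.36 ± 0.38), Sars2 (-1.12 ± 0.45) and Vars (-1.08 ± 0.48).

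These extremes came largely from that 1 array. Yars2 was at 5.99 and 5.19 in Het and 4.97 and 1.67 in WT. Eprs, the fused glutamate and proline enzyme, was at 6.09 and 6.04 in Het and 6.10 and 1.85 in WT, and Iars was at 7.39 and 7.51 in Het and 7.33 and 3.46 in WT. WT monosome 2 was the low value for each, and none of the 3 was well above background there. Without WT replicate 2 Eprs went to -0.04 ± 0.44, Iars to 0.12 ± 0.24 and Yars2 to 0.62 ± 0.37. Of the low members Sars2 went to -0.32 ± 0.39 and Vars to -0.38 ± 0.45. Hars was at 5.45 and 5.56 in Het and 6.40 and 7.33 in WT, and kept its sign at -0.90 ± 0.31. Without WT replicate 1, which leaves that array as the only WT one, taken to vary like the other groups, 14 members were called, against 53.2% of tested probes.

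The enzymes of the multisynthetase complex went both ways on polysomes. Among the 7 of them that were tested, polysome minus whole muscle was above 0 for Dars and Kars and below 0 for the other five, from Iars at -1.21 to Dars at 1.12, and their median was -0.34 (-0.21 without WT replicate 2). Dars rose and Iars fell at an adjusted p under 0.05. Their polysome to monosome ratio was above 0 for 6 of 7 (median 0.99 over these 7), Qars being the exception, and the median was 0.32 without WT replicate 2. Het minus WT on polysomes had a median of 0.04 over these 7 enzymes (0.21 without WT replicate 2), with 0 called.

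Genes that work beside the synthetases were described from a list of 14 charging partners, of which 13 were tested. In polysome minus whole muscle 4 rose and 3 fell at an adjusted p under 0.05, against 13.1% of tested probes higher and 11.6% lower. Aimp2, a scaffold of the multisynthetase complex, rose by 0.74 ± 0.18, and Aarsd1, an alanine editing factor, by 0.82 ± 0.15, while Eef1e1, another scaffold, was at -0.98 ± 0.16 and Tarsl2, a second cytosolic threonine enzyme, at -0.96 ± 0.23. In the polysome to monosome ratio 10 of the 13 tested were above 0, with a median of 1.012 over these 13, and Pstk (-0.70 ± 0.23), Prorsd1 (-0.41 ± 0.24) and Gatc (-0.25 ± 0.24) were below 0. Between genotypes on polysomes 0 were called, 9 of the 13 tested were above 0, and the median was 0.37 over these 13 and 0.24 over all 14.

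Genes of the amino acid response, the program that the factor Atf4 switches on when charged tRNA runs short, formed a second list of 14, with 13 tested. On polysomes relative to whole muscle 7 rose and 0 fell at an adjusted p under 0.05, against 13.1% of tested probes higher and 11.6% lower, with a median of 0.55 beside 0.10 over all tested probes. Without WT replicate 2 the counts were 5 and 0, where 27.3% of tested probes were called in either direction. Slc3a2, the heavy chain of an amino acid transporter, rose by 1.21 ± 0.17, and Phgdh, the first enzyme of serine synthesis, by 0.72 ± 0.16. Relative to monosomes the median was 0.56 and 9 of 13 were above 0, while Atf4 itself was at -0.63 ± 0.21. Between genotypes 0 genes of this list were called, with medians of -0.39 in whole muscle, -0.40 in polysomes and -0.82 in monosomes. Over all tested probes these were -0.03, 0.04 and 0.10. In whole muscle WT replicate 1 was high for Atf3 (8.44, against 3.74 and 5.37 in WT 2 and WT 3) but not for Atf4 (11.28, against 11.60 and 11.62). The immune marker Cd68 was high there too (9.88, against 5.58 and 7.98), and the tested immune markers had a median of -0.82. The part of this mouse in the medians was not tested.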

How the data were processed

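Each sample was hybridised in 1 color to an Agilent mouse array. The authors deposited scanner files with spot intensities, made with Agilent Feature Extraction 11.0.1.1 (named in the file headers), whose processed signal is background-subtracted and not scaled between arrays, and a table of log2 values, quantile-normalized per the study's methods, which kept the rank order of each array's median signal before background subtraction. Probe coordinates in the files are mm9.

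Processed intensities were log2 transformed, flagged outlier spots were dropped, spots of a probe were averaged, and the 16 arrays were quantile-normalized together, the scaling that the study's methods name. Of the probes, 20244 were tested. Pairing of RNA kinds within a mouse came from the design text and the replicate numbers. Whole-muscle, polysome and monosome signals were compared by limma 3.58.1 (lmFit, eBayes; R 4.3.3) over all 16 arrays, and ratios within a mouse by limma with genotype as the term. P-values were Benjamini-Hochberg adjusted over all tested probes, and ± gives the SE of the fit. The fits were tested on simulated data. The number of arrays limits the precision. The fit over 16 arrays had no term for mouse and shared a spread per probe over the RNA kinds. Its p-values therefore do not measure the spread between mice within a single kind. Those of the ratios within a mouse measure the spread between these mice. Plots were drawn with matplotlib 3.10.9.

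The members, the lists (charging partners, amino acid response, multisynthetase complex and 6 marker lists) and the rule for named genes (every member; values per array for the 3 highest and 3 lowest of a comparison, for members whose probes disagree, and for Gars and Kars; other genes only from the lists) were chosen with earlier results of these data known. A member that enters the counts is not reported here by name. All 37 members matched RefSeq, 36 under the same symbol. Alternatives were another scaling, background correction, filter, array set and probe per gene, the authors' table, slide, brightness and replicate terms, the methods' t-test and leaving out each mouse.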

Additional observations from a re-analysis of the deposited data

Results flagged for a closer look

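Yars2, the mitochondrial tyrosine enzyme, drew attention because its polysome minus whole-muscle ratio was above 0 in every Het mouse (0.54, 0.59 and 0.61) and below 0 in every WT mouse (-0.76, -1.26 and -0.10). The difference of 1.29 on the log2 scale was tested in the fit of loading and did not pass the adjusted threshold (limma, adjusted p = 0.154). Of the 34 tested members 1 had its genotypes on opposite sides of 0, in either direction, against 7.12% of all tested probes.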

How the results depend on the processing

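Each result was recomputed under 19 alternative settings, or fewer where a setting could not apply. Fits on a single slide, or with slide as a term, took single arrays and so dropped the pairing within a mouse. No mouse had its polysome and whole-muscle arrays on the same slide, and a single slide left some groups with a lone array. No genotype comparison in whole muscle, polysomes or loading called a member under any of the settings. For monosomes 1 member was called with normexp background correction, 1 with the authors' table, 9 on slide 2 alone (40.7% of tested probes) and 14 without WT replicate 1, which leaves WT monosome 2 as the lone WT array. In these monosome comparisons 3.36% of all tested probes were called with normexp and 4.05% with the authors' table. The methods' t-test called 0 members after adjustment in each genotype comparison, and 4 in polysome against monosome (2.02% of tested probes). At the methods' own threshold, an unadjusted p under 0.05 with a difference over 1 log2 unit, it called Yars2 in polysomes and in loading and 0 members in whole muscle and monosomes.

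The polysome to monosome count, 0 of 34 as reported, became, with the share of all tested probes called, 20 (25.2%) with 75th percentile scaling, 19 (24.9%) with normexp, 19 (26.2%) with the authors' table, 16 of 22 (51.5%) among probes well above background on all 16 arrays, 19 (25.6%) with slide as a term, 17 (39.4%) on slide 2 alone and 8 (8.69%) with the mean of a gene's probes. It ran from 0 to 25 when 1 mouse was left out (25, with 49.8%, without WT replicate 1 and 20, with 33.6%, without WT replicate 2). Its mitochondrial median was 0.77 (75th percentile scaling), 0.37 (normexp and the authors' table alike), 0.69 (probes well above background on all arrays), 0.91 (slide as a term), 0.99 (slide 1 alone), 0.89 (slide 2 alone) and 0.87 (array brightness as a term), and 0.85 to 0.94 with 1 mouse left out. Its cytosolic median was 0.60 with normexp, 0.62 with the authors' table and 0.77 on slide 2 alone. Farsb turned to 0.26 on slide 2 alone, and Qars ran from -0.24 to 0.046 (without WT replicate 1) with 1 mouse left out.

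The 9 calls of polysome against whole muscle became 5 (5.58%) with no filter on dim probes, 5 (15.3%) with slide as a term, 3 (11.9%) with brightness as a term and 0 (0%) within each slide, and ran from 2 (without Het replicate 3) to 10 with 1 mouse left out (4 without Het replicate 1 and 5 without Het replicate 2). Its cytosolic median was -0.0079 with 75th percentile scaling. Its mitochondrial median was 0.13 among probes well above background on all arrays, and 0.047 to 0.14 with 1 mouse left out. With the mean of its probes Iars2 turned to 0.27.

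For the genotype medians, whole muscle gave 0.11 (cytosolic, 75th percentile scaling) and 0.29 (mitochondrial, slide 2 alone), and polysomes gave 0.61 (mitochondrial, slide 1 alone) and 0.23 (cytosolic, slide 2 alone). The mitochondrial polysome median stayed above 0 in all settings, from 0.21 to 0.61. The monosome medians were -0.10 (75th percentile scaling), -0.15 (normexp) and -0.12 (slide 1 alone) for cytosolic and 0.043 (normexp) and 0.13 (slide 1 alone) for mitochondrial members, and with 1 mouse left out -0.33 to -0.15 and -0.29 to 0.047. The mitochondrial loading median was 0.18 with normexp, 0.20 with the authors' table, 0.51 on slide 1 alone, -0.031 on slide 2 alone and 0.15 with brightness as a term. The cytosolic one was 0.26 with the mean of a gene's probes.

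Single members turned sign as follows. Wars2 in loading went to 0.043 with normexp, 0.11 with slide as a term, 0.65 on slide 1 alone, 0.40 with brightness as a term and between -0.49 and 0.066 (without WT replicate 1) with 1 mouse left out, and the dim Mars2, largely at background, turned in loading to -0.72 on slide 2 alone and -1.90 with brightness as a term. In whole muscle, slide 1 alone turned Pars2 to -0.23 and Wars2 to -0.038, slide 2 alone turned Eprs to 0.0099, and brightness as a term turned Eprs to 1.17. In polysomes Hars turned to 0.23 on slide 2 alone and ran from -0.42 to 0.050 (without WT replicate 2) with 1 mouse left out. In monosomes Eprs turned to -0.017 on slide 1 alone and ran from -0.039 (without WT replicate 2) to 4.22 (without WT replicate 1) with 1 mouse left out. The cause was not tested for any of these.

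Replicate numbers were not taken as pairing WT with Het mice. Deviations of same-numbered arrays had r from -0.23 to 0.22 in whole muscle and from -0.33 to 0.45 in polysomes. For whole muscle and polysomes of the same mouse r ran from 0.05 to 0.48. With so few arrays per group such values cannot settle either pairing. With the number as a replicate block 0 members were called in each genotype comparison, and the mitochondrial polysome median was 0.36. Without the replicate block of the mouse, 5 members (15.2% of tested probes) were called in polysome against whole muscle and 19 (26.0%) in polysome against monosome, whose mitochondrial median was then 0.91.

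Each group holds 2 or 3 arrays, which limits the precision of every value. WT polysome 2 and WT monosome 2 differ from the rest and are one mouse. The Het whole-muscle arrays had a brightness of 13.5 to 33.0 and the WT ones of 42.3 to 150, so brightness and genotype cannot be fully separated there. Probes not well above background on a whole group, such as those of Mars2, give only a bound for that group.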
